A study of Rattus norvegicus with 29 samples.

Results

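The age difference of the hippocampus under pioglitazone (PIO) was read from 14 arrays, 1 per rat, of the 29 in the series: 8 from young PIO rats and 6 from aged PIO rats. The members were every rat whose label gave the PIO diet. No measured value entered that choice, though earlier results of these data were known when it was made. All rats were male and of the Fischer 344 strain, an inbred model of aging. The drug was mixed into the food from 3 months of age in the young and from 17 months in the aged group, and the diet lasted 4 to 5 months at about 2.3 mg per kg of body weight a day. The PIO rats were therefore 7 to 8 or 21 to 22 months old when tissue was taken. The remaining 15 arrays, from 8 young and 7 aged rats of the same strain and sex on the same diet without drug, served as the comparison and shared the estimate of the spread. The groups have limits as a model of age under the drug. The amount of PIO in the food was set separately for each age. That dose is a value for both ages together, and by the study's record of food intake the aged rats took in less drug per body weight than the young, so that age and dose cannot be told apart in this comparison. Likewise, the age at which the drug began cannot be separated from the age at the end, and the aged PIO rats are those that survived to the end of a study in which several old animals were lost. Every rat had also been through maze training, and the RNA came from the dorsal and ventral ends of both hippocampi left over after slices were cut, pooled for each animal. Each value is a signal intensity of 1 probe set on a linear scale, and differences are given as log2 fold changes of aged over young ± SE, so that a positive value is a higher signal in the aged rats.

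PIO is a thiazolidinedione, a drug that activates the nuclear receptor PPARγ, which drives genes of lipid storage and insulin sensitivity and in macrophages holds back inflammatory genes. Microglia are the resident macrophages of the brain. With age they take up more debris, carry more lysosomal and Fc receptor proteins, make complement and display peptides on MHC class II molecules, while oligodendrocytes go on wrapping axons in myelin. The question of the comparison was how the hippocampus of old rats differs from that of young rats when both eat the drug.

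The tissue held the genes of its label. Of the markers listed for CA1 pyramidal neurons 5 of 6 were bright enough to test, for CA3 neurons 6 of 6 and for dentate granule cells 4 of 8. Markers of neighbouring thalamus (5 of 7), striatum (8 of 10) and cerebral cortex (7 of 7) were bright enough too. Arrays of young PIO rats had a median signal of 176 to 189 and those of aged PIO rats one of 181 to 192. The 3′ to 5′ ratio of Gapdh, a sign of RNA integrity, had a median of 1.06 in both groups, and that of beta-actin ran from 1.72 to 2.04 in the young and from 1.82 to 2.12 in the aged. Their part in the results below was not tested.

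Both replicates numbered 1 stood apart from their groups. In the 15 control arrays alone, 225 genes had an unadjusted p up to 0.01 between the ages, 188 of them higher and 37 lower in the aged. For each PIO array, the share of those genes nearer to the aged than to the young control mean was counted. It was 84.9% in the array labelled young PIO 1 and 12.9% to 33.3% (median 23.6%) in the other 7 young PIO arrays. In the array labelled aged PIO 1 it was 20.4%, and in the other 5 aged PIO arrays 64.4% to 82.7% (median 75.1%). Each of these arrays thus lay with the other age group. Whether the labels of the 2 arrays were exchanged was not tested, and every value from all 14 arrays takes the labels as given. Young PIO 1 also had the highest signal among young PIO rats of the thalamic markers Tcf7l2, at 735 against a group median of 433, and Prkcd, at 559 against 282, and its mean log2 signal over the 5 thalamic markers was 8.80 against 8.21 to 8.41 in the other young PIO arrays. Its mean over 9 choroid plexus markers was 7.11 against 6.25 to 6.55, and over the 7 cortical markers 8.32 against 8.51 to 8.70. The 5 thalamic markers of aged PIO 1 averaged 8.52, against 8.22 to 8.36 in the other aged PIO arrays. The part of neighbouring tissue in these results was not tested. Both arrays were kept in the main comparison, and the counts, the lists and the leading genes are also given without them, written below as without both arrays. Since they were singled out by genes related to age, leaving them out widens an age difference by construction, and those values are given as a description.

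**Figure D1:**
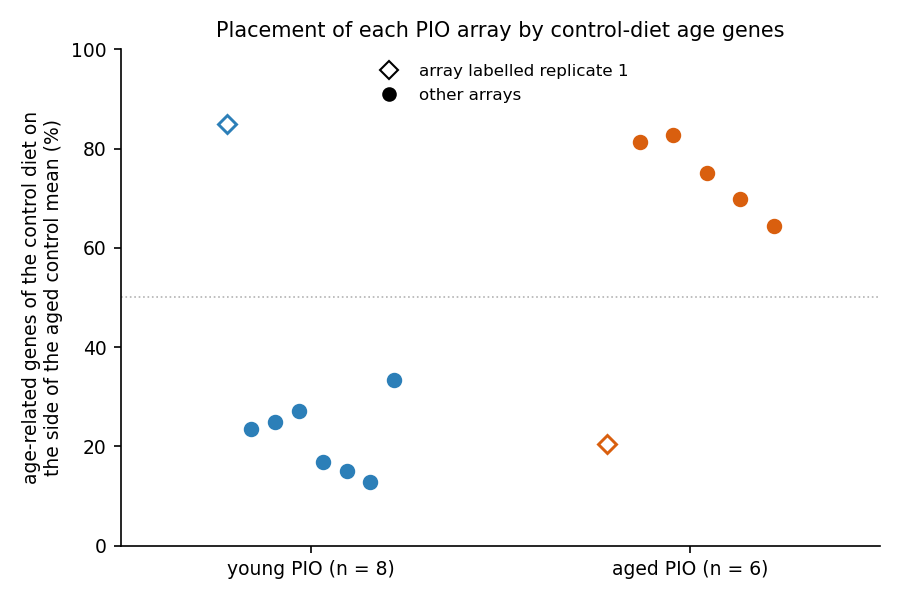
Share of the 225 control-diet age genes that lay on the side of the aged control mean, in percent, for each of the 14 PIO arrays; horizontal position within a group only spreads the points. Young PIO 1 (84.9%) and aged PIO 1 (20.4%), drawn as open diamonds, lie opposite to the other arrays of their groups.

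With all 14 arrays, 0 of 11632 genes passed an adjusted p of 0.05 in limma, and 0 passed in the methods' test per gene on either log2 or linear signals. The smallest adjusted p was 0.177. An unadjusted p up to 0.05 was reached by 626 genes (5.38% of those tested), where 582 were to be expected by chance. Of these, 456 (3.92% of all genes) had a higher and 170 (1.46%) a lower signal in the aged rats. Quantile normalization gave 535 genes, 318 higher and 217 lower, so that the share of higher signals among them was 59.4% where it had been 72.8%. The differences of the 626 genes ran from 0.06 to 1.59 in size (median 0.20, log2), and the 95% interval of a gene typically reached 0.15 to either side. Over all genes the median difference was 0.01, and 54.3% of them had a higher mean in the aged rats. Without young PIO 1 and aged PIO 1, 65 genes passed the adjusted threshold, 61 higher (0.524%) and 4 lower (0.0344%) in the aged, and 954 had an unadjusted p up to 0.05, 678 higher (5.83%) and 276 lower (2.37%). Leaving out young PIO 1 alone gave 22 genes and aged PIO 1 alone 7, all of them among the 65, and leaving out any other PIO array gave 0. Of the 65 genes, 61 had an unadjusted p up to 0.05 with all arrays, and their differences without both arrays were 0.16 to 1.91 in size (median 0.43).

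MHC class II molecules present peptides taken up from outside the cell to helper T cells. Of 11 genes listed, 8 were bright enough to test. All 8 had a higher mean in the aged rats and 5 reached an unadjusted p up to 0.05, where 3.92% of all genes did in that direction. The median difference over the 8 was 1.27, against 0.01 over all genes. It was 1.01 on the control diet and 1.69 without young PIO 1 and aged PIO 1. The probe sets of this family recognise related transcripts, so that its members are not separate measurements. In bulk tissue, fewer cells of a type and less RNA per cell cannot be told apart, here and in every cell type below. This and the other gene lists were chosen with earlier results of these data known. Several of them hold genes that the study reports as changed with age on these same arrays, so their counts are a description.

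The invariant chain Cd74, which guides class II molecules to the peptide compartment, had a signal of 86.1, 190 and 686 (lowest, median and highest) in the young and of 242, 491 and 2443 in the aged PIO rats. The highest value belonged to aged PIO 2, while young PIO 1 (686) and young PIO 8 (639) lay above 4 of the 6 aged arrays, so that the groups overlapped. The difference was 1.42 ± 0.46 (adjusted p = 0.636). Without aged PIO 2 it was 1.01. Without young PIO 1 and aged PIO 1 it was 1.91 ± 0.45 (adjusted p = 0.0445).

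RT1-Ba, an alpha chain, had a signal of 43.0 to 218 (median 76.4) in the young and 63.5 to 622 (median 199) in the aged rats. The ranges overlapped, with aged PIO 2 the highest of all and young PIO 8 the highest of the young. It differed by 1.22 ± 0.40 (adjusted p = 0.650), and by 1.68 (adjusted p = 0.0369) without both arrays. RT1-Da, the alpha chain of the other class II molecule, ran from 60.0 to 640 (median 166) in the young and from 214 to 2353 (median 364) in the aged, a difference of 1.46 ± 0.52 (adjusted p = 0.736). RT1-Bb, a beta chain, gave 1.32 ± 0.48 (adjusted p = 0.748). Without young PIO 1 and aged PIO 1, RT1-Da and RT1-Bb differed by 1.94 and 1.71 and did not pass (adjusted p = 0.110 and 0.153), so that 2 of the 8 class II genes passed there. Ciita, the factor that switches class II genes on, was dim, at a median of 42.4 in the young and 53.5 in the aged, with a difference of 0.40 ± 0.28 (adjusted p = 0.992).

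The sequences just upstream of 3 of the class II genes with values above are shown because all 8 members were higher in the aged rats and because class II promoters are known to carry a Y box, whose core is CCAAT on either strand. RefSeq gave promoter windows for 6 of the 8 measured genes on build GRCr8, 250 bases before to 50 after the start. All 6 held the core, as did 37.7% of 27457 rat promoter windows searched the same way. Each line gives the 200 bases before the transcript start, 5′ to 3′ on the plus strand, with the core in capitals. They lie at chr18:56527006-56527205 for Cd74, chr20:4576857-4577056 for RT1-Ba and chr20:4515215-4515414 for RT1-Da.
Cd74: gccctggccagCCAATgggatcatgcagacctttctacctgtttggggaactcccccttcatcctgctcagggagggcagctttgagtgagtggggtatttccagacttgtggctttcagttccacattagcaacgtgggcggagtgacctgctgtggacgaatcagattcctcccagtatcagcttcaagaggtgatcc
RT1-Ba: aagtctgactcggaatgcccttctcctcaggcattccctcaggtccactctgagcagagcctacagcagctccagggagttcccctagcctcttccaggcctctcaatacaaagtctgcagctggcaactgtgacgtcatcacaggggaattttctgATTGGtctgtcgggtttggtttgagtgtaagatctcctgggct
RT1-Da: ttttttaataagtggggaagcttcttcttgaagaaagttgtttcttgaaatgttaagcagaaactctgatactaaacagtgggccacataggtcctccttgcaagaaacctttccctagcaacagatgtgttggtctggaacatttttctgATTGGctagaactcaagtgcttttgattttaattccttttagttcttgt
The core began 189 bases before the start in Cd74, 43 in RT1-Ba and 49 in RT1-Da, in the last of these and in RT1-Ba as ATTGG, its reverse complement. A match of these letters is a description of the window and not a site.

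**Figure D2:**
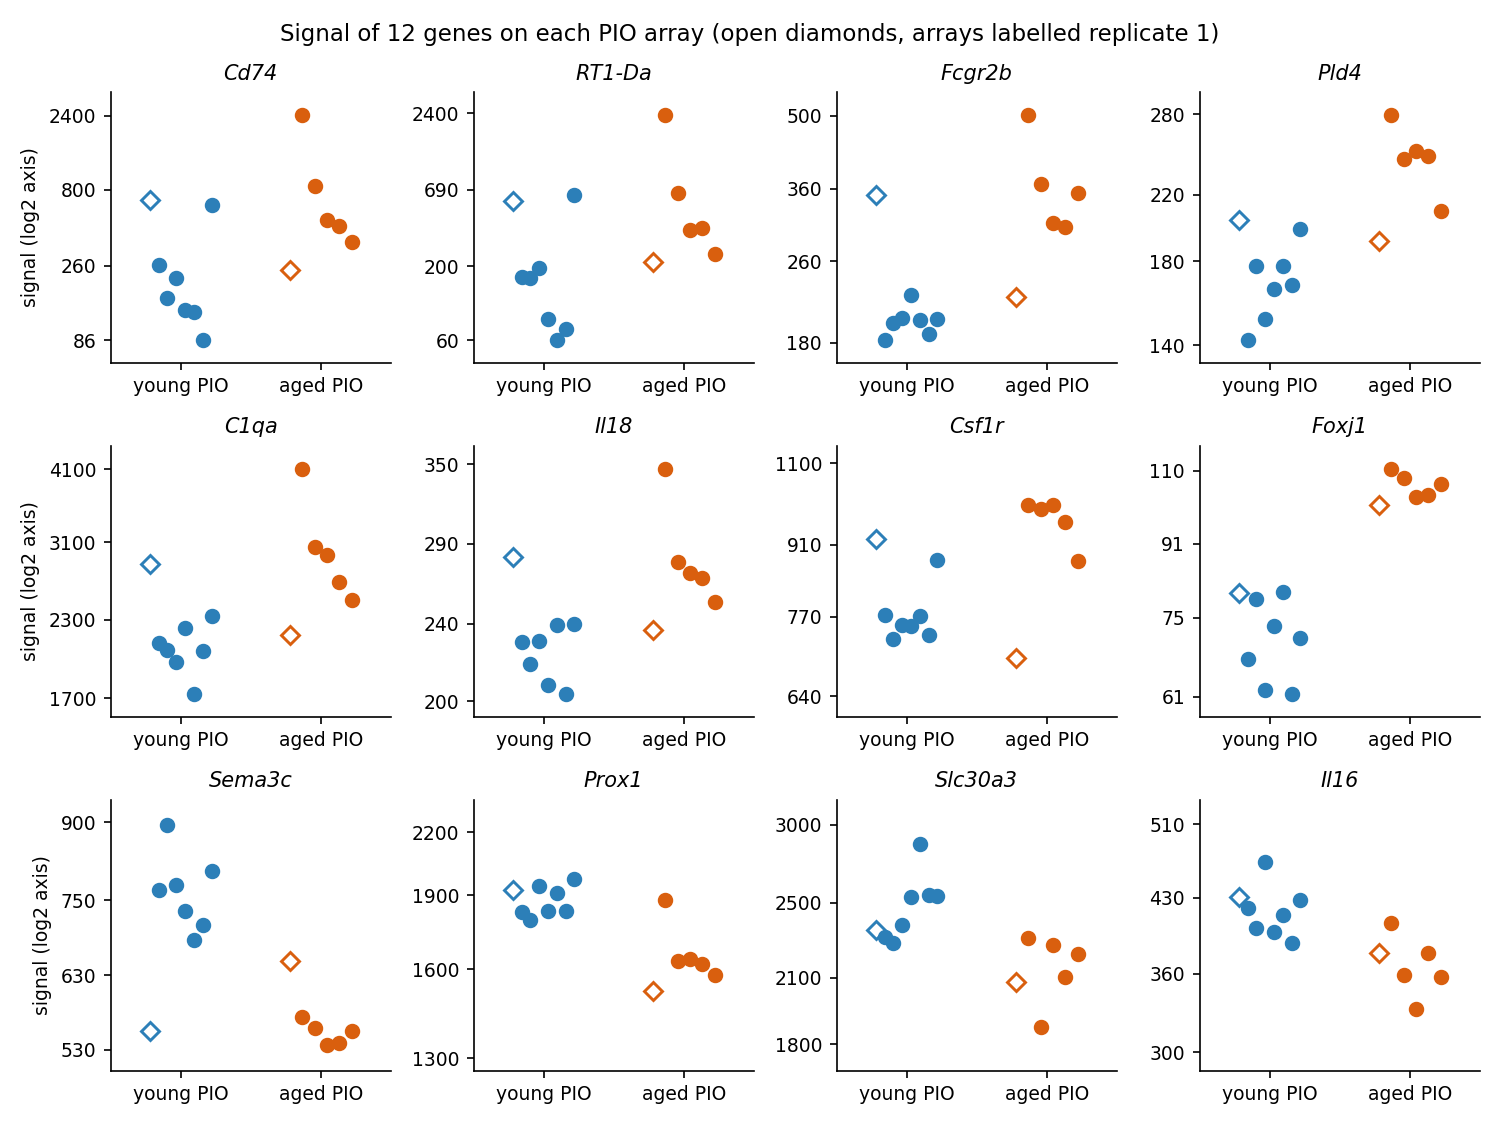
Signal of 12 genes on each of the 14 PIO arrays, on log2 axes; horizontal position within a group only spreads the points, and open diamonds are young PIO 1 and aged PIO 1. For Fcgr2b, all young arrays but young PIO 1 lie below all aged arrays but aged PIO 1, while for Foxj1 the groups do not overlap.

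Genes of microglia had higher means in the aged PIO rats. Of 34 markers listed, 28 were bright enough to test, all 28 were higher and 14 reached an unadjusted p up to 0.05 (background 3.92%). Their median difference was 0.26 with all arrays, 0.25 on the control diet and 0.35 without young PIO 1 and aged PIO 1, where 10 of the 28 passed the adjusted threshold (background 0.524%). Without aged PIO 2 the median was 0.18. The mean log2 signal of the 28 genes was 8.10 to 8.62 (median 8.28) in the young and 8.35 to 8.98 (median 8.58) in the aged arrays. Young PIO 1 was the highest of the young and aged PIO 1 the lowest of the aged.

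Pld4, an exonuclease of the endosome that breaks down nucleic acids, had the smallest p of all. Its signal was 142, 173 and 204 (lowest, median and highest) in the young and 191, 246 and 280 in the aged rats. Only young PIO 1 and young PIO 8 among the young exceeded aged PIO 1, which was the lowest of the aged. The difference was 0.45 ± 0.09 (adjusted p = 0.177), and 0.55 ± 0.09 (adjusted p = 0.00192) without the 2 arrays. On the control diet it was 0.28.

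Fcgr2b, the inhibitory Fc receptor for immunoglobulin G, stood at 182, 200 and 350 in the young and at 222, 331 and 503 in the aged rats. The 350 was young PIO 1, and the other 7 young arrays reached only 224, while aged PIO 1 was the lowest of the aged at 222. The difference was 0.64 ± 0.15 (adjusted p = 0.378) and without both arrays 0.86 ± 0.12 (adjusted p = 0.00123). Fcer1g, the signalling chain that Fc receptors share, ran from 938 to 1360 (median 976) in the young and from 1005 to 1665 (median 1292) in the aged, a difference of 0.37 ± 0.09 (adjusted p = 0.412). Young PIO 1 again held the upper and aged PIO 1 the lower end. Tyrobp, an adaptor of the receptor Trem2, differed by 0.45 ± 0.11 (adjusted p = 0.378) over signals of 171 to 280 and 209 to 353.9. Of the 5 Fc receptor genes measured, of 6 listed, all were higher and 2 reached an unadjusted p up to 0.05 (background 3.92%), with a median of 0.24. Without young PIO 1 and aged PIO 1 the median was 0.32 and 2 of the 5 passed the adjusted threshold, Fcgr2b and Fcer1g, the latter at 0.51 (adjusted p = 0.00123). Tyrobp differed by 0.59 there.

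Other immune genes were among those named by the smallest p. Ptprc, the CD45 phosphatase of all leukocytes, ran from 83.8 to 153 (median 100) in the young and from 116 to 217 (median 152) in the aged rats, a difference of 0.58 ± 0.14 (adjusted p = 0.378). Plek, a substrate of protein kinase C in blood-derived cells, ran from 127 to 208 and from 147 to 342, a difference of 0.56 ± 0.14 (adjusted p = 0.378). Young PIO 1 was the highest young array in Ptprc, Laptm5, Cd53, Plek and Tyrobp, while the lowest aged array was aged PIO 1 in Cd53, Plek and Tyrobp and aged PIO 10 in Ptprc and Laptm5. Laptm5, a lysosomal protein of immune cells, differed by 0.45 ± 0.11 and the tetraspanin Cd53 by 0.32 ± 0.08 (both adjusted p = 0.378). Without both arrays, Cd53, Laptm5, Ptprc, Plek and Tyrobp each passed the adjusted threshold, with adjusted p from 0.00192 to 0.0325. Tmem119 and P2ry12 mark resident microglia rather than incoming macrophages. Tmem119 ran from 390 to 509 (median 424) and from 427 to 593 (median 552), a difference of 0.26 ± 0.09 (adjusted p = 0.736, and 0.110 without both arrays), and the purine receptor P2ry12 gave 0.18 ± 0.08 (adjusted p = 0.907, and 0.0496 without both arrays). Csf1r, the receptor that keeps microglia alive, had 0.21 ± 0.07 (adjusted p = 0.636), and 0.32 (adjusted p = 0.00224) without both arrays.

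T and NK cell markers were mostly too dim. Of 18 listed, 6 were tested, 5 were higher and 2, Ccl5 and Prf1, reached an unadjusted p up to 0.05 (background 3.92%). The chemokine Ccl5 stood at 37.4 to 97.5 (median 53.6) in the young and 54.4 to 232 (median 93.4) in the aged rats, a difference of 0.85 ± 0.25 (adjusted p = 0.595). Prf1, the pore-forming protein of killer cells, had 0.73 ± 0.33 (adjusted p = 0.901). With both arrays left out, the median of the 6 went from 0.34 to 0.44 and none passed the adjusted threshold, Ccl5 having an adjusted p of 0.0610. None of the 8 granulocyte genes listed and 1 of 10 genes of B and plasma cells was bright enough.

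**Figure D3:**
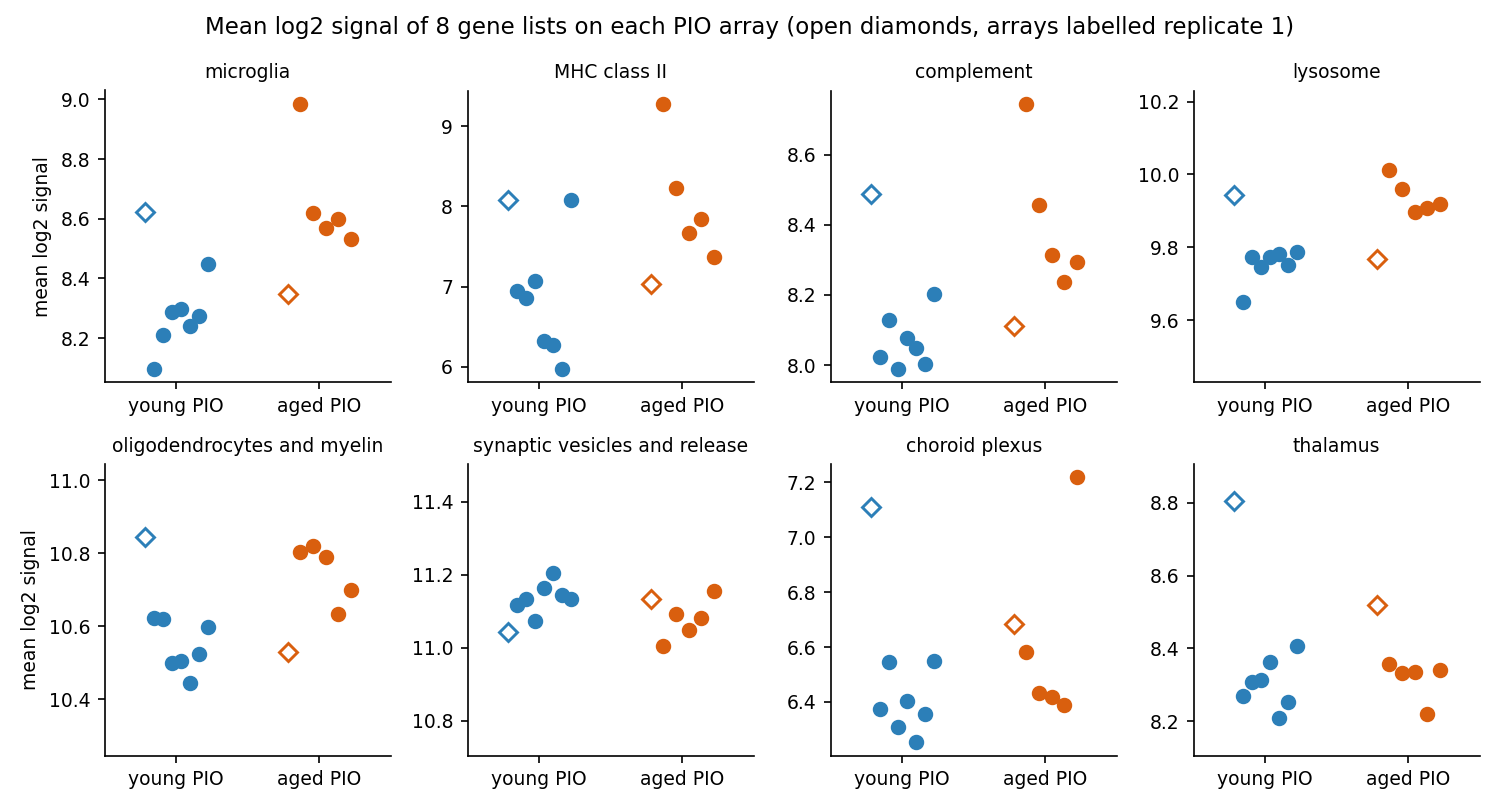
Mean log2 signal over the measured genes of 8 lists on each of the 14 PIO arrays, the axis of every panel spanning at least 0.8; horizontal position only spreads the points. Young PIO 1 and aged PIO 1 (open diamonds) sit with the other age group in microglia, complement, lysosome and myelin, and young PIO 1 is also the highest young array for choroid plexus and thalamus.

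Complement tags synapses and debris for removal, and microglia are the main source of its first component in the brain. Of 20 genes listed, 13 were measured, 11 were higher in the aged PIO rats and 5 reached an unadjusted p up to 0.05 (background 3.92%). The median difference was 0.21, against 0.20 on the control diet and 0.32 without both arrays. All 3 chains of C1q were among the 5. C1qa had a signal of 1728, 2075 and 2845 in the young and 2171, 2805 and 4112 in the aged rats, with young PIO 1 the highest young and aged PIO 1 the lowest aged array, and differed by 0.41 ± 0.12 (adjusted p = 0.563). C1qb differed by 0.34 ± 0.10 and C1qc by 0.26 ± 0.09 (adjusted p = 0.616 and 0.650). C3, the central component, which reactive astrocytes also make, ran from 317 to 1337 (median 498) in the young and from 540 to 2007 (median 982) in the aged, a difference of 0.84 ± 0.32 (adjusted p = 0.761). Without both arrays C1qa, C1qb and C1qc passed the adjusted threshold (0.0227, 0.0105 and 0.0315) and C3 did not.

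Type I interferon induces antiviral genes through the factors Irf7, Irf9 and Stat2. Of 35 genes listed, 25 were measured, 23 were higher, 6 reached an unadjusted p up to 0.05 as higher and 1, the RNA sensor Ifih1, as lower (background 3.92% for higher and 1.46% for lower signals). The median difference was 0.18, against 0.17 on the control diet and 0.20 without both arrays, where 9 were higher at an unadjusted p up to 0.05 and 1, Irf7, passed the adjusted threshold. Irf7 ran from 108 to 171 (median 127) in the young and from 121 to 214 (median 174) in the aged rats, and the groups overlapped with or without young PIO 1 and aged PIO 1, with a difference of 0.31 ± 0.11 (adjusted p = 0.736), and 0.45 (adjusted p = 0.0337) without both. Ifi27 differed by 0.14 ± 0.05 (adjusted p = 0.781) over signals of 3948 to 4224 and 3721 to 5072. Ifih1 stood at 9.47 in aged PIO 1 against a median of 44.4 in its group, and its difference was -0.57 with all arrays and -0.17 without young PIO 1 and aged PIO 1. Of the 25 genes, 20 had a promoter window in RefSeq, and 12 of those held an interferon response element, searched as GAAA repeated after a gap of 2 bases on either strand, as did 3.77% of all 27457 windows.

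MHC class I genes, which present peptides from inside the cell, had smaller differences. Of 19 listed, 14 were measured, 12 were higher and 3 reached an unadjusted p up to 0.05 (background 3.92%), B2m, Psmb9 and RT1-CE16. The median was 0.10, and 0.16 without both arrays. B2m, the light chain of class I, ran from 6300 to 7614 (median 6552) and from 6328 to 8458 (median 7479), a difference of 0.16 ± 0.06 (adjusted p = 0.748), and 0.23 (adjusted p = 0.0362) without both arrays.

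Among cytokines and their receptors, 20 of 28 genes were measured and 18 were higher. An unadjusted p up to 0.05 was reached by 6 as higher (background 3.92%) and by 1, Il16, as lower (1.46%). The median difference was 0.12, and 0.16 without both arrays, where none of the 20 passed the adjusted threshold. Il18, a cytokine that the inflammasome activates, had a signal of 203, 230 and 281 in the young and 237, 269 and 346 in the aged rats. Young PIO 1 was the highest young array and aged PIO 1 the lowest aged array, and 5 of 8 young arrays lay below all aged ones. The difference was 0.25 ± 0.08 (adjusted p = 0.650), equal to the 0.25 of the control diet, and 0.33 (adjusted p = 0.0546) without both arrays. Pycard, the adaptor of that inflammasome, had 0.30 ± 0.12 (adjusted p = 0.788). Il33, an alarmin of oligodendrocytes and astrocytes, stood at 861 to 1023 (median 890) and 843 to 1039 (median 935), a difference of 0.05 ± 0.05 (adjusted p = 0.993), and the receptor chain Il10rb gave 0.13 ± 0.09 (adjusted p = 0.993). Il16, a chemoattractant with a neuronal form, was lower in the aged, at 332, 368 and 405 against 386, 416 and 467 in the young, with an overlap of the highest aged and the lowest young arrays. It differed by -0.18 ± 0.06 (adjusted p = 0.616). Tlr4, the receptor for bacterial endotoxin, was dim at medians of 54.4 and 64.7 and differed by 0.30 ± 0.14 on PIO and -0.12 on the control diet (limma, adjusted p = 1.00 for the interaction). The inflammatory genes Il1a, Il1b, Il6, Tnf and Ccl2 were under the brightness limit, with group medians of at most 38.1, and so were Serpina3n and Mug1.

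Lysosomal genes, which digest what the cell takes up, were 35 of 38 measured. Of these 31 were higher, 14 reached an unadjusted p up to 0.05 as higher (background 3.92%) and 1 as lower (1.46%). The median was 0.11 on PIO and 0.09 on the control diet. Once both arrays were left out, the median was 0.13 and 5 of the 35 passed the adjusted threshold (background 0.524%). The cathepsin Ctsz had a signal of 134, 153 and 216 in the young and 178, 222 and 287 in the aged rats, young PIO 1 again being the highest young and aged PIO 1 the lowest aged array. It differed by 0.46 ± 0.11 (adjusted p = 0.378), and 0.59 (adjusted p = 0.00475) without both arrays. Npc2, which carries cholesterol out of the lysosome, ran from 2653 to 3785 (median 2829) and from 2788 to 3924 (median 3745), a difference of 0.30 ± 0.08 (adjusted p = 0.492). Lamp2, a membrane protein of the organelle, gave 0.18 ± 0.06 (adjusted p = 0.736). Npc2 and Lamp2 differed by 0.43 and 0.27 without both arrays (adjusted p = 0.00123 and 0.0130). The cathepsins Ctsb and Ctsl, which neurons also express, differed by 0.02 ± 0.04 and 0.00 ± 0.06.

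Genes that mark activated microglia in disease were mixed. Of 25 listed 20 were measured, 16 were higher, 7 reached an unadjusted p up to 0.05 as higher (background 3.92%) and 1 as lower (1.46%). The median was 0.12, and 0.17 without both arrays, where 5 passed the adjusted threshold (background 0.524%). Gpnmb, a membrane glycoprotein of lipid-laden phagocytes, had a difference of 0.40 ± 0.15 (adjusted p = 0.751) and the galectin Lgals3 0.56 ± 0.22 (adjusted p = 0.781), both past the adjusted threshold without both arrays (0.00955 and 0.0243). Lpl, a lipase and a PPAR target, was lower in the aged, at 702 to 824 (median 753) against 691 to 957 (median 853), a difference of -0.16 ± 0.07 (adjusted p = 0.816), and -0.23 (adjusted p = 0.132) without both arrays. In that gene young PIO 1 was the lowest young and aged PIO 1 the highest aged array. Apoe differed by 0.00 ± 0.06, and Itgax, Clec7a, Cst7 and Spp1 were under the brightness limit.

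Of 29 genes of oligodendrocytes and myelin, 26 were measured, 25 were higher and 6 reached an unadjusted p up to 0.05 (background 3.92%). The median was 0.12 on PIO and 0.13 on the control diet. With both arrays left out, the median was 0.20 and 15 reached an unadjusted p up to 0.05, where 5.83% of all genes did in that direction. Mag, an adhesion protein of the inner myelin wrap, ran from 1329 to 1790 (median 1400) in the young and from 1345 to 1964 (median 1795) in the aged rats. Young PIO 1 and aged PIO 1 were the arrays at the overlap. It differed by 0.23 ± 0.09 (adjusted p = 0.787, and 0.0682 without both arrays), and Ndrg1 by 0.17 ± 0.06 (adjusted p = 0.736). Without both arrays Ndrg1 passed at an adjusted p of 0.0279, the only one of the 26 to do so. Over the 26 genes young PIO 1 had a mean log2 signal of 10.84, against 10.45 to 10.62 in the other young PIO arrays.

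Astrocyte markers were level. Of 15 measured genes 8 were higher and 0 reached an unadjusted p up to 0.05, with a median of 0.00, and Gfap, the filament of astrocytes, stood at 7019 to 9277 (median 7786) and 6686 to 9537 (median 8738), a difference of 0.10 ± 0.07 (adjusted p = 0.985), and 0.20 (adjusted p = 0.101) without both arrays. Genes of reactive astrocytes were higher in 9 of 10 measured, of 16 listed, with a median of 0.23. The 2 with an unadjusted p up to 0.05 (background 3.92%) were C3 and Cd44, at 0.84 and 0.23 (adjusted p = 0.761 and 0.827). Once both arrays were left out, the medians of the astrocyte and reactive astrocyte genes were 0.03 and 0.31, with 2 of 15 and 7 of 10 as higher at an unadjusted p up to 0.05 and none past the adjusted threshold.

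**Figure D4:**
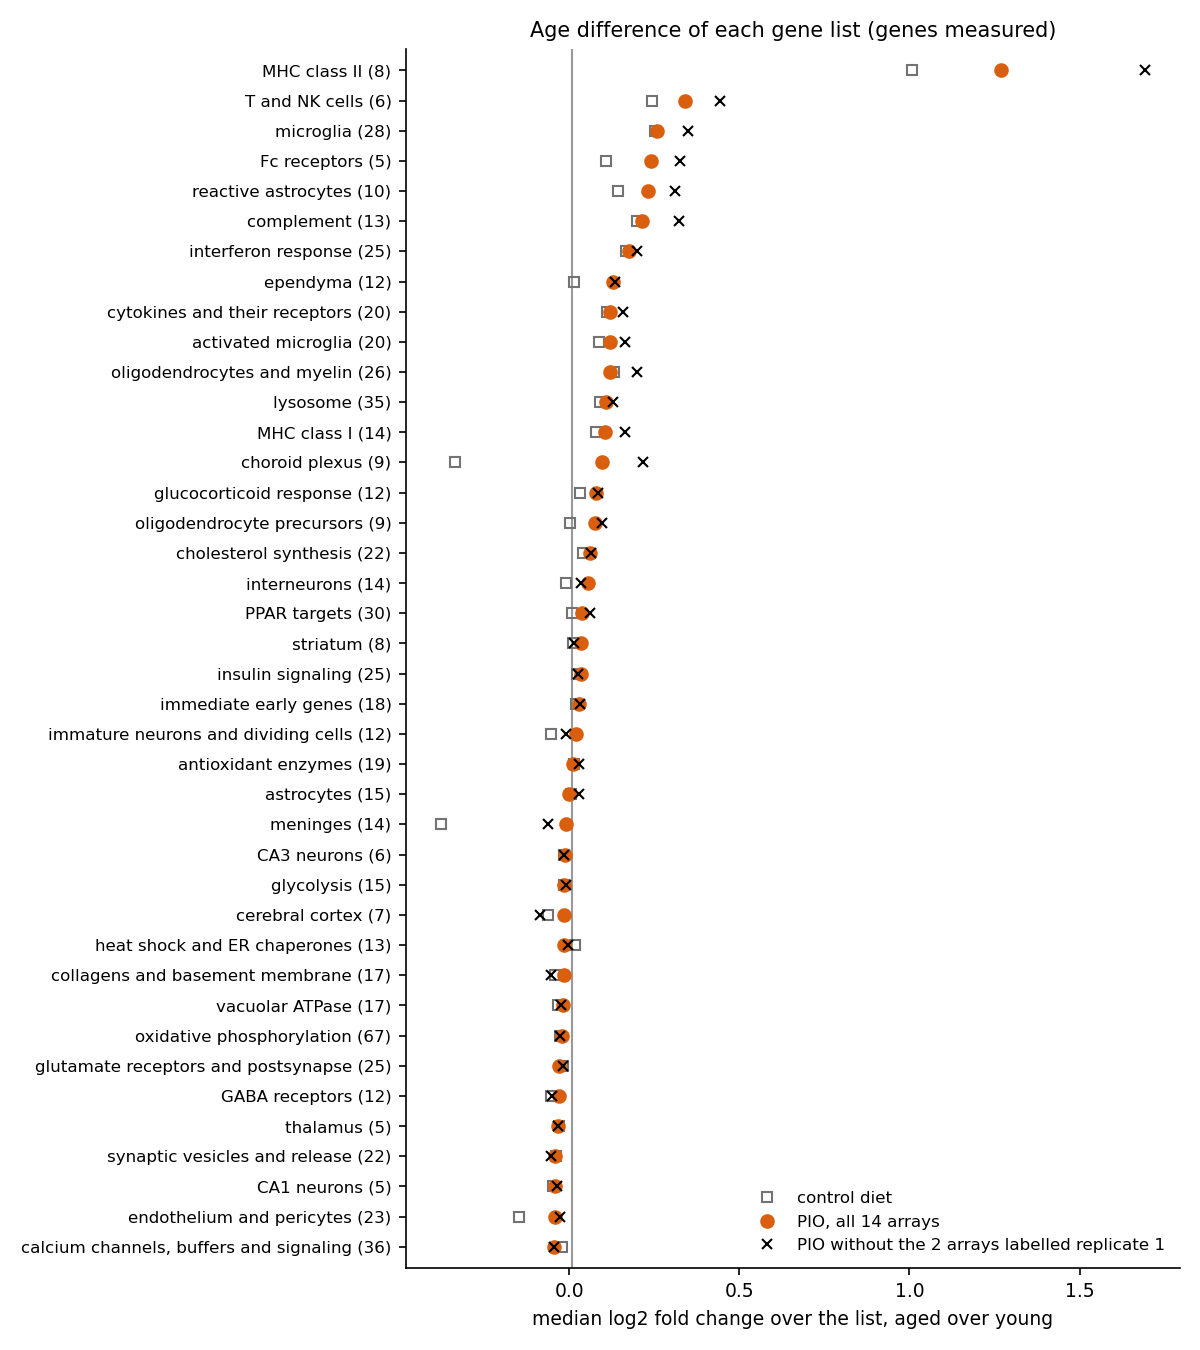
Median log2 fold change of aged over young for each list with at least 5 measured genes (number in brackets), on PIO with all 14 arrays, on PIO without young PIO 1 and aged PIO 1, and on the control diet; the grey line is the median of all genes on PIO (0.01). MHC class II stands farthest to the right at 1.27, and the medians of neuronal and energy lists lie between -0.05 and 0.06.

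Neuronal genes as groups lay near 0. Synaptic vesicle and release genes were lower in 18 of 22 measured, with a median of -0.04 and 1 of them, Slc17a7, at an unadjusted p up to 0.05 (background 1.46%). Slc17a7, the vesicular glutamate transporter of hippocampal excitatory neurons, ran from 5734 to 6497 (median 6134) and from 5349 to 6131 (median 5589), a difference of -0.12 ± 0.04 (adjusted p = 0.751). Of 25 glutamate receptor and postsynaptic genes 7 were higher and 0 reached an unadjusted p up to 0.05, with a median of -0.03. Among 12 GABA receptor genes 3 were higher and 1, Gabra5, reached it at -0.12 ± 0.05 (adjusted p = 0.827). Calcium channels, buffers and signalling genes, of interest because a calcium-dependent potential of CA1 neurons changes with age, were lower in 29 of 36, with a median of -0.04 and 2 at an unadjusted p up to 0.05. Those were Camk4, a nuclear calcium-dependent kinase, at -0.29 ± 0.12 (adjusted p = 0.792), and Cacna1e, the dim R-type channel subunit, at -0.57 ± 0.22 (adjusted p = 0.781). With both arrays left out, the medians were -0.05 for synaptic vesicle, -0.02 for glutamate receptor, -0.05 for GABA receptor and -0.04 for calcium genes, and no gene of these lists passed the adjusted threshold.

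Among the lower signals, 8 genes were named by the smallest p, and Sema3c led them. Sema3c, a secreted guidance cue, had a signal of 553, 749 and 893 in the young and 535, 555 and 651 in the aged rats. The 553 was young PIO 1 and the 651 aged PIO 1, and the other 7 young arrays lay above all aged arrays. It differed by -0.37 ± 0.08 (adjusted p = 0.378) on PIO and by -0.40 on the control diet, and without both arrays by -0.47 ± 0.07 (adjusted p = 0.00192). Prox1, the factor that defines dentate granule cells, stood at 1792, 1871 and 1972 and at 1519, 1624 and 1878. Only aged PIO 2, at 1878, reached into the young range. Its difference was -0.20 ± 0.05 (adjusted p = 0.492) on PIO and -0.03 on the control diet (limma, adjusted p = 1.00 for the interaction). Slc30a3, the zinc transporter of synaptic vesicles in mossy fibres, ran from 2276 to 2869 (median 2454) and from 1873 to 2306 (median 2161), a difference of -0.21 ± 0.06 (adjusted p = 0.561) against -0.04 on the control diet (limma, adjusted p = 1.00 for the interaction). Of the other 3 measured markers of granule cells, Calb1 gave -0.06 ± 0.07, Trpc6 -0.05 ± 0.08 and Dsp 0.16 ± 0.13. The rest of the 8 lower genes with the smallest p were Kansl2, Fam163b, Vangl2, Rrp12 and Il16, with differences of -0.14 to -0.22 and adjusted p of 0.563 to 0.616. None of Prox1, Slc30a3, Kansl2, Fam163b, Vangl2, Rrp12 and Il16 passed the adjusted threshold without both arrays, where the 4 lower genes that did were Sema3c, Fbln2, Plac9 and Ptpro, the last 3 of them named after their values were seen.

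Separation of the groups picked out other genes. In 7 genes (0.0602% of those tested) every aged array lay above every young array, and in 3 (0.0258%) below. The number to be expected by chance was not worked out, so these counts are a description. The 7 were Prrc1, Gcat, Ogdh, Foxj1, Adcy10, Btk and Clca1, and the 3 Arhgef7, Ampd2 and Pierce2. Adcy10, Btk and Clca1 are named after their values were seen. Ogdh, a subunit of the oxoglutarate dehydrogenase of the citric acid cycle, ran from 2849 to 3051 (median 3029) in the young and from 3057 to 3407 (median 3166) in the aged, which is 0.09 ± 0.03 (adjusted p = 0.749). Adcy10, the soluble adenylyl cyclase, was dim at 30.3, 41.9 and 54.3 in the young and 55.4, 67.9 and 80.5 in the aged, a difference of 0.66 ± 0.13 (adjusted p = 0.177) on PIO and 0.56 on the control diet. Btk, a kinase of B cells and myeloid cells, gave 0.52 ± 0.15 (adjusted p = 0.551). Ampd2, an AMP deaminase, differed by -0.10 ± 0.04 (adjusted p = 0.723) and Arhgef7 by -0.15 ± 0.06 (adjusted p = 0.882). Once both arrays were left out, the groups did not overlap in 120 of the 11632 genes with the aged above and 21 with the aged below. Both arrays were singled out by age genes, and smaller groups overlap less often. Leaving them out therefore raises these counts by construction.

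Genes listed as targets of PPAR receptors, a list not limited to PPARγ, had small differences with age under the drug. Of 42 PPAR targets listed 30 were measured, 25 had a higher mean and 0 reached an unadjusted p up to 0.05 as higher, while Lpl reached it as lower. Their median difference was 0.04 on PIO and 0.01 on the control diet. With both arrays left out, the median was 0.06, 4 reached an unadjusted p up to 0.05 as higher (background 5.83%), Lpl as lower, and none passed the adjusted threshold. Pdk4, the kinase that shuts pyruvate out of the mitochondrion, ran from 94.6 to 188 (median 141) and from 90.6 to 412 (median 186), a difference of 0.41 ± 0.28 (adjusted p = 0.992). Angptl4, an inhibitor of Lpl, gave 0.09 ± 0.10, the lipid droplet protein Plin2 0.02 ± 0.09 and the fatty acid importer Cpt1a 0.04 ± 0.04 (adjusted p = 0.993, 0.995 and 0.993). Pparg itself was under the brightness limit, at 15.5 to 42.8 (median 22.8) and 22.9 to 47.9 (median 32.9), as were the adipose genes Adipoq, Fabp4 and Cidec. Of the 30 genes 24 had a promoter window, and 0 of those held an exact match to a PPAR response element. It was searched as AGGTCA repeated after a gap of 1 base on either strand, and 0.0583% of all windows held it. With a match that rare, the 0 says nothing about whether these genes carry the element. Among 25 genes of insulin signalling 15 were higher and 0 reached an unadjusted p up to 0.05, with a median of 0.04, and 0.03 without both arrays, where 1 reached it. The insulin receptor Insr stood at 178 to 210 (median 191) and 155 to 218 (median 194), a difference of 0.00 with a 95% interval of 0.15 to either side.

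Cholesterol synthesis genes were higher in 17 of 22 measured, and 4 reached an unadjusted p up to 0.05 (background 3.92%), with a median of 0.06 with and without both arrays. Srebf1, a master factor of lipid synthesis, ran from 647 to 748 (median 709) and from 598 to 920 (median 858), aged PIO 1 being the lowest of all 14 arrays. It differed by 0.19 ± 0.08 (adjusted p = 0.781) and by 0.29 (adjusted p = 0.0372) without both arrays. Insig1, which holds the SREBP factors in the endoplasmic reticulum, had 0.17 ± 0.06 (adjusted p = 0.736) and Ggps1, which makes a prenyl donor, 0.13 ± 0.04 (adjusted p = 0.650). Energy lists had medians near 0, but fewer of their genes were higher in the aged rats than the 54.3% of all genes. Oxidative phosphorylation genes were higher in 16 of 67 measured, with 0 at an unadjusted p up to 0.05, a median of -0.02 and differences of -0.08 to 0.05, and glycolysis genes in 5 of 15, with a median of -0.01. Once both arrays were left out, their medians were -0.03 and -0.01.

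Next, the difference under PIO was set beside that on the control diet, from rats that share no array with the PIO groups. Among 536 genes higher in aged control rats at an unadjusted p up to 0.05, 470 (87.7%) had a higher mean in aged PIO rats too, against 66.1% of all genes that were higher on the control diet, and 132 (24.6%) reached an unadjusted p up to 0.05 within the 14 PIO arrays, against 6.39%. Of 224 genes lower in aged control rats, 159 (71.0%) were lower in aged PIO rats and 12 (5.36%) reached it, against 57.7% and 2.33%. With both arrays left out, the shares of the same sign were 91.2% for higher genes, against 65.9% of all genes, and 78.6% for lower genes, against 60.9%. Over all 11632 genes the differences on both diets had a Pearson correlation of 0.34 and a Spearman correlation of 0.31, given as a description since genes are not independent replicates and all arrays share 1 platform. All 65 genes that passed without both arrays had the same sign on the control diet. Both arrays were singled out by control-diet age genes, so leaving them out raises this agreement and the shares without them by construction.

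**Figure D5:**
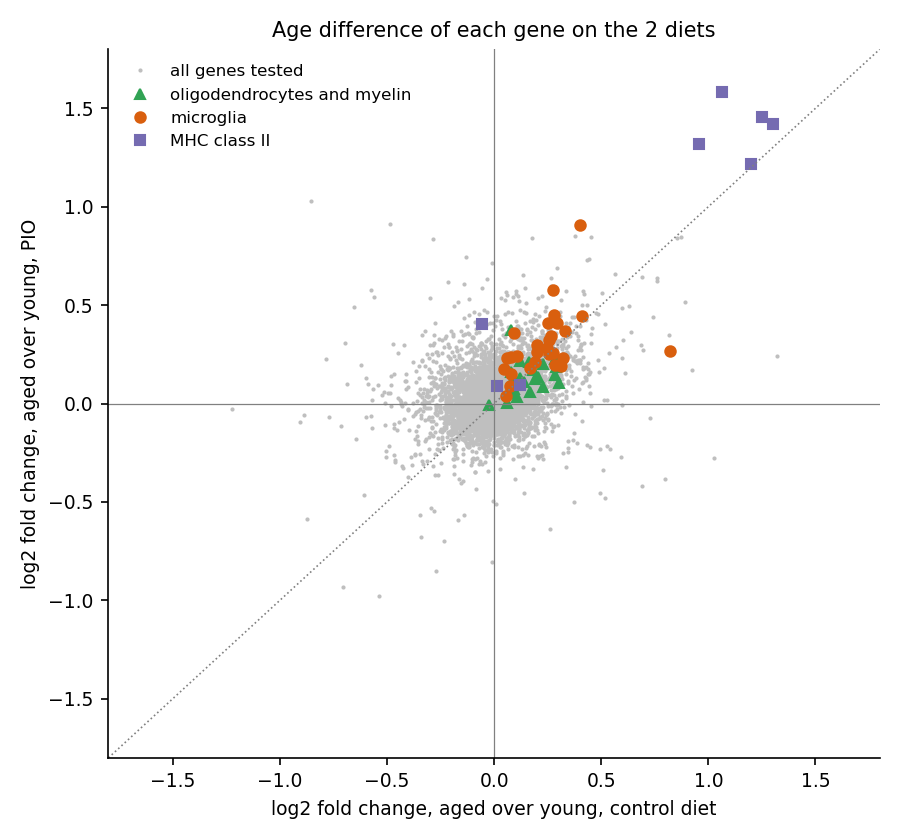
Log2 fold change of aged over young for each of the 11632 genes on the control diet (horizontal axis) and on PIO with all 14 arrays (vertical axis); the dotted line marks equal values. Genes of MHC class II, microglia and myelin lie mostly to the upper right, around the dotted line.

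The test of the difference itself, the interaction of age and diet in limma, called 0 of 11632 genes at an adjusted p of 0.05, and the methods' test 0 on log2 and 0 on linear signals. At an unadjusted p up to 0.05 it gave 204 genes (1.75%), where 582 were to be expected by chance. The 95% interval of a gene's interaction typically reached 0.20 to either side, so that smaller differences between the diets could not be seen gene by gene. None of the 28 microglia, 8 class II, 13 complement or 26 myelin genes was among the 204. The interval of the interaction was wider for class II genes such as RT1-Ba (1.14 to either side) and RT1-Da (1.49). The absence of these lists from the 204 therefore does not show equal differences on both diets. The 3 smallest p with a larger difference on PIO were those of Hdac7, Elp6 and Zfp324, with differences of 0.29, 0.14 and 0.28 on PIO and of -0.21, -0.10 and -0.16 on the control diet. Those with a smaller one were Fahd1, Bag5 and Rrp12, with -0.26, -0.16 and -0.20 on PIO and 0.23, 0.14 and 0.06 on the control diet. The histone deacetylase Hdac7 had a signal of 113 to 203 (median 146) in young and 144 to 204 (median 181) in aged PIO rats, and the mitochondrial enzyme Fahd1 one of 384 to 552 (median 419) and 288 to 430 (median 373). In both genes the ranges of the PIO groups overlapped, and the adjusted p of the interaction was 1.00. Tlr4, Prox1, Slc30a3 and Lpl were among the 204 genes. F3, the tissue factor that starts clotting, differed by -0.03 on PIO and 0.15 on the control diet, and Zfp36, which destabilises cytokine mRNAs, by 0.10 and 0.08, with F3 among the 204 genes and Zfp36 not.

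Of the lists with at least 5 measured genes, those of choroid plexus and meninges, tissues at the border of the hippocampus, had the medians farthest apart between the diets. Choroid plexus genes, of which 9 of 15 were measured, had a median of 0.10 on PIO and -0.34 on the control diet, and meningeal genes, 14 of 14, one of -0.01 and -0.38, with 0 of the 9 and 0 of the 14 at an interaction p up to 0.05. Young control 6 had a median correlation of 0.974 with the other arrays, against 0.986 to 0.989 in the PIO arrays. That array enters all control-diet values, and its part in these medians was not tested. Ttr, the thyroxine carrier that choroid plexus secretes, stood at 106, 173 and 754 in young and 144, 206 and 1995 in aged PIO rats. Young PIO 1 held the 754, and the groups overlapped throughout. Over the 9 choroid plexus genes aged PIO 10 had a mean log2 signal of 7.22, against 6.39 to 6.68 in the other aged PIO arrays, and without it the median was 0.03. Endothelial and pericyte genes, 23 of 24, had medians of -0.04 and -0.15. Once both arrays were left out, the medians on PIO were 0.22 for choroid plexus, -0.06 for meninges and -0.03 for endothelium and pericytes.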

How the data were processed

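RNA of 1 hippocampal sample per rat was hybridised to 1 Affymetrix RAE230 2.0 array per animal. The authors converted the scans to signal intensities with the MAS5 algorithm, scaled each array to a common target and deposited the intensity of all 31099 probe sets on a linear scale. Samples were grouped by the labels, and all arrays differed from each other. The precision rests on the number of arrays.

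Of the probe sets, 57 were controls, 20826 carried 1 gene symbol, 436 several and 9780 none, by the platform's annotation, and a RefSeq table gave a current name to 20760 (99.7%) of the single symbols. The dimmest 25%, with a mean signal under 44.4, were left out and the brightest probe set stood for each gene, which left 11632. Signals were taken to log2 and fitted with limma 3.58.1 in R 4.3.3, with 1 mean per group over all 29 arrays, 2.48 prior degrees of freedom and Benjamini-Hochberg adjustment over all genes. Control midpoints used a fit of the 15 control arrays alone, and the shares of control-diet genes with a small p on PIO one of the 14 PIO arrays alone. The methods' test was the pairwise contrast per gene with the error of the 4 groups pooled, without moderation. Tables and plots were made in Python 3.11.15 with pandas 2.3.3 and matplotlib 3.10.9. The fit was tested on simulated data. Promoter windows came from RefSeq on build GRCr8.

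The members and the 44 gene lists were chosen with earlier results of these data known. Genes with a mean signal of at least 100 were named by the smallest p in each direction, 8 per direction since none passed the adjusted threshold, by the largest differences among genes whose groups did not overlap, and by the 3 smallest interaction p per direction. Of each list up to 4 genes with the smallest p were named, as were the genes that the study names in its text on the arrays, Pparg and Insr. Other genes named for what they do were chosen after their values were seen. Ednra was not analysed here. The alternatives were quantile normalization, other filters, adding 16 to each signal, testing each probe set separately, another moderation, array weights, the replicate number as a block and leaving out arrays.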

Additional observations from a re-analysis of the deposited data

Results flagged for a closer look

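In groups of 8 young and 6 aged PIO arrays, an array was picked out where its gap to the nearest other array was large for the range of its group by Dixon's criterion, which chance meets in about 1 of 20 groups. Of 84 pairs of list and group 9 met it, and of 44 pairs of gene and group 10. The genes had been named by their p or by lack of overlap on these same arrays. For them, 1 in 20 is therefore no measure of chance. Young PIO 1 was the highest young array, by mean log2 signal, for activated microglia at 9.68 (others 9.27 to 9.40), complement at 8.49 (7.99 to 8.20) and Fc receptors at 8.33 (7.84 to 8.07). It was also the highest for lysosome at 9.94 (9.65 to 9.79), reactive astrocytes at 8.97 (8.36 to 8.51) and oligodendrocytes and myelin at 10.84 (10.45 to 10.62). The same held for the neighbouring tissues choroid plexus at 7.11 (6.25 to 6.55) and thalamus at 8.80 (8.21 to 8.41). Among aged arrays, aged PIO 10 was the highest for choroid plexus at 7.22 (6.39 to 6.68). Lists that share genes are not separate observations.

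By signal, young PIO 1 was the highest young array for Fcgr2b at 350 (others 182 to 224), Cd53 at 522 (409 to 448), Ptprc at 153 (83.8 to 113) and Tyrobp at 280 (171 to 212). Young PIO 4 was the lowest for Ogdh at 2849 (others 2997 to 3051), young PIO 6 the highest for Slc30a3 at 2869 (2276 to 2544) and young PIO 8 the highest for Ampd2 at 1190 (1087 to 1133). Among the aged, aged PIO 1 was the highest for Sema3c at 651 (535 to 572), aged PIO 2 for Prox1 at 1878 (1519 to 1637) and aged PIO 4 for Rrp12 at 318 (242 to 269).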

How the results depend on the processing

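Of the values of aged against young PIO rats, the count past the adjusted threshold was 0 with all arrays and 1 in a fit of the 14 PIO arrays alone, where the gene was Foxj1, which was not among the 65 genes called without young PIO 1 and aged PIO 1. It ran from 0 to 22 when each array was left out in turn. The count at an unadjusted p up to 0.05 was 626, and it was 1091 of 23281 with every probe set on its own, 954 without both arrays and 505 to 919 when each array was left out in turn. The interaction gave 0 genes past the adjusted threshold under every alternative that could be fitted, and 130 to 432 at an unadjusted p up to 0.05. A fit of the 14 PIO arrays alone cannot give it. Without young control 6, 0 genes passed the adjusted threshold for aged against young PIO rats and 686 reached an unadjusted p up to 0.05. The 77 named genes with an unadjusted p up to 0.05 had 2058 values under the alternatives, of which 0 had the opposite sign. These genes were taken by their p in the same arrays that the alternatives fit again. A change of sign was therefore unlikely from the start, and the count is a description.

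Replicate numbers of the labels were shared by 5 young and 5 aged PIO arrays. Deviations from the group means of arrays with the same number correlated at 0.00 to 0.17, and 2 of 10 arrays correlated best with their own number. With the replicate number as a block, 722 genes had an unadjusted p up to 0.05, 0 passed the adjusted threshold and 0 the interaction, and the medians of meninges and of endothelium and pericytes became 0.18 and 0.04. Without aged PIO 2, the array highest for class II genes, the class II median was 0.90. Changes smaller than about 0.15 (log2) could not be resolved for a typical gene, and genes under the brightness limit were not tested.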

Other observations

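Ependymal cells line the ventricles and beat cilia. Of 16 genes listed for them, 12 were measured, 8 were higher in aged PIO rats and 2, Foxj1 and Jhy, had an unadjusted p up to 0.05 as higher (3.92% of all genes did), with a median difference of 0.13 on PIO and 0.01 on the control diet. Foxj1, the factor that switches on genes of motile cilia, had a signal of 61.4, 72.2 and 80.1 (lowest, median and highest) in young and 101, 105 and 111 in aged PIO rats, so that the groups did not overlap. Its difference was 0.56 ± 0.20 (limma, adjusted p = 0.736) on PIO and 0.10 on the control diet (limma, adjusted p = 1.00 for the interaction). Jhy, a gene of ciliary structure, differed by 0.32 on PIO and 0.60 on the control diet (limma, adjusted p = 1.00 for the interaction), the opposite order.

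Of 19 antioxidant genes measured, 14 were higher and 2 had an unadjusted p up to 0.05 as higher (background 3.92%). Nfe2l2, the factor that induces detoxifying enzymes, ran from 580 to 755.7 (median 614) in the young and from 630 to 795 (median 730) in the aged PIO rats, a difference of 0.19 ± 0.06 (limma, adjusted p = 0.672). The glutathione transferase Gstp1 differed by 0.18 ± 0.07 (limma, adjusted p = 0.781). Without young PIO 1 and aged PIO 1 both passed the adjusted threshold, at 0.0315 and 0.0128. Of 12 measured genes of the glucocorticoid response, its receptors included, 8 were higher and 1, Sgk1, had an unadjusted p up to 0.05 (background 3.92%). Sgk1, a kinase of salt and stress responses, stood at 2093 to 3758 (median 2415) and 2217 to 5504 (median 3538). The groups overlapped and the difference was 0.45 ± 0.20 (limma, adjusted p = 0.893). Immediate early genes, which report recent neuronal activity, were higher in 12 of 18 with 0 at an unadjusted p up to 0.05. Among 14 interneuron genes, Calb2, a calcium buffer that immature granule cells also make, was higher at 0.26 ± 0.12 (limma, adjusted p = 0.918). Without young PIO 1 and aged PIO 1, 0 of the 14, Calb2 included, reached an unadjusted p up to 0.05.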
